A study of Mus musculus with 39 samples.

Results

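The acrosome is the secretory vesicle that caps the sperm head, and 10 mouse genes that encode its contents, its membranes or proteins of sperm-egg interaction were followed here across testis RNA-seq libraries. The genes were *Acr*, *Acrbp*, *Zpbp*, *Zpbp2*, *Spam1*, *Spaca1*, *Spaca3*, *Acrv1*, *Spaca4* and *Izumo1*. They were taken by gene symbol, and all 10 members were found among the 21561 Ensembl genes that both deposited count tables hold. The 24 testis libraries came from male C57BL/6J mice and fell into 8 groups of 3 biological replicates, 1 for each combination of genotype and postnatal day that was sampled. WT mice carried the unmodified *Insl3* locus. INSL3-KI mice were homozygous for a minke whale *INSL3* cDNA placed at the mouse *Insl3* locus under its own regulatory elements, made from targeted embryonic stem cells with the selection cassette removed by Cre, so that the mouse coding sequence was replaced. INSL3-KO mice carried the knockout of *Insl3*. No treatment was given. WT and INSL3-KI testes were sampled at postnatal days 8, 23 and 40 (P8, P23, P40) and INSL3-KO testes at P8 and P23. INSL3 is the Leydig cell hormone that drives descent of the testis through its receptor RXFP2 on the gubernaculum, and the comparisons ask how germ cell genes of the testis stand when the mouse hormone is replaced or removed.

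Acrosome genes are transcribed in germ cells that have entered meiosis and in haploid spermatids, and *Acr* is known to be transcribed from pachytene spermatocytes onwards. The acrosome forms from Golgi-derived vesicles on the nucleus of the round spermatid, spreads into a cap, and is carried by the elongating spermatid until it is released at fertilization. *Acr* encodes acrosin, a trypsin-like serine protease of the acrosomal matrix, and *Acrbp* the protein that binds its precursor. *Zpbp* and *Zpbp2* encode zona pellucida binding proteins, *Spam1* the hyaluronidase PH-20, *Spaca1* a membrane protein needed to form the acrosome, *Spaca3* a lysozyme-like protein and *Acrv1* the acrosomal vesicle protein SP-10. *Spaca4* encodes a GPI-anchored surface protein, and *Izumo1* the sperm protein that binds the egg receptor JUNO before fusion.

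In the GENCODE annotation of GRCm38, the build named in the submitters' processing notes, the genes lie on 6 of the autosomes and no single cluster holds them. *Spaca1* lies at chr4:34024874-34050191 on the minus strand, *Spam1* at chr6:24791188-24801048 and *Acrbp* at chr6:125049689-125063267, both on the plus strand. *Izumo1* at chr7:45621811-45628823 (plus) and *Spaca4* at chr7:45725107-45725813 (minus) lie near each other, and *Acrv1* lies at chr9:36693220-36698843 (plus). Chromosome 11 carries *Zpbp* at chr11:11279626-11462408 (minus), *Spaca3* at chr11:80858365-80867814 (plus) and *Zpbp2* at chr11:98551097-98558665 (plus), and *Acr* lies at chr15:89568326-89574585 (plus). *Acrbp* shares 975 exonic bases with *4930557K07Rik* and *Gm44597*, *Izumo1* shares 654 with *Rasip1* and *Zpbp* shares 223 with *Spata48*, so reads from these stretches cannot be assigned to 1 gene with certainty. The other 7 genes share no exonic base with another gene.

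Because the members moved together across the libraries, as given below, their promoters were read for short words bound by transcription factors of the germline. RefSeq promoter windows of GRCm38.p6, 250 bases before to 50 bases after the start, were matched for 9 of the 10 genes. 5 words were searched on both strands, chosen with these windows in view: TGACGTCA, the full cAMP response element bound by CREM, its shorter form TGACG, which lies within it, GTTGCC and GTTACC of the RFX family, and ACAAT of the SOX family. TGACGTCA stood in the window of *Izumo1* alone among the 9 matched genes, and in 1.79% of all 32851 windows. TGACG stood in those of 5 genes (*Acrbp*, *Spaca1*, *Spaca3*, *Zpbp2*, *Izumo1*) and in 20.8% of all windows. GTTGCC was found for 1 gene (12.5% of all windows), GTTACC for 2 genes (7.21%) and ACAAT for 2 genes (31%). The upstream 250 bases are shown for the 3 genes in which no annotated exon covered them and a searched word was found, with every match to that word in capitals on either strand. They run 5′ to 3′ on the gene's own strand, the plus strand in each case. The *Izumo1* sequence is chr7:45621561-45621810, that of *Zpbp2* chr11:98550847-98551096 and that of *Spam1* chr6:24790938-24791187.
*Izumo1* (TGACGTCA): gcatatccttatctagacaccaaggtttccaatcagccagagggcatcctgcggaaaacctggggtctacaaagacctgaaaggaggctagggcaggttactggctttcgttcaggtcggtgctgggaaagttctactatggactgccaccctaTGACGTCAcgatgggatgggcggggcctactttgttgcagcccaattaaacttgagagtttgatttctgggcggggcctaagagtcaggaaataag
*Zpbp2* (TGACG): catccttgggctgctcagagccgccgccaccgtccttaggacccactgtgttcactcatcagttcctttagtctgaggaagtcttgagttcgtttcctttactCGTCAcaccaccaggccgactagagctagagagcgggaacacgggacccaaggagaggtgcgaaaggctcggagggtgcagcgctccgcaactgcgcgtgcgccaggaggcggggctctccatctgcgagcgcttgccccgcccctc
*Spam1* (ACAAT): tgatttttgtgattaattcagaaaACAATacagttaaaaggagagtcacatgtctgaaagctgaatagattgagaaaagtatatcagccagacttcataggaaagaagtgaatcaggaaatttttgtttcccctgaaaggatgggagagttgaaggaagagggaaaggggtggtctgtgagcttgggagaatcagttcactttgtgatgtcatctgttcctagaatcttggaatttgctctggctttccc
In *Izumo1* the cAMP response element began 96 bases before the start. These matches describe letters in the windows and say nothing of binding.

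Library depth was 33000204 to 42629270 counts, so at 3 counts a gene stood at the limit of detection, taken here as the floor of each library. Levels within a gene are CPM, counts per library size scaled by TMM (a trimmed mean of log ratios) over the 24 testis libraries, and levels between genes are the deposited FPKM, which are per transcript length. The targeted gene was read first. *Insl3* had 2922, 3524 and 2722 counts in P8 WT, 20844, 25238 and 23851 in P23 WT and 20183, 20887 and 29799 in P40 WT. The P23 INSL3-KO libraries had 0, 5 and 0 counts, whereas the P8 libraries labelled INSL3-KO had 906, 804 and 613, which goes against a full loss of the gene. INSL3-KI libraries, in which the mouse coding sequence was replaced, had 15 to 33 counts at P8, 52 to 84 at P23 and 443 to 511 at P40.

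Several libraries stood apart from their groups in the members themselves. In P8 INSL3-KI replicate 2 the summed level of the 10 genes was 78.5 CPM against 14.0 and 12.0 in replicates 1 and 3, in P23 INSL3-KI replicate 3 it was 488 against 1193 and 1393, and in P40 INSL3-KI replicate 1 it was 458 against 71.6 and 72.5. The counts of called members and lists for these groups are therefore also given without that library. The deposited tables also divide the groups: the first holds WT and INSL3-KI testes except P23 WT, the second holds all INSL3-KO testes and P23 WT. The first holds 22036 Ensembl genes and the second 43339. The transcript length implied by counts and FPKM also differed, from 0.985 (*Spam1*) to 1.10 (*Acr*) times in the second relative to the first. The members may thus not be counted over the same gene models in both. Where a comparison joins the tables, table and group cannot be told apart, and this is stated beside it. Sertoli cell genes, which mark the testis, summed to 2744 to 14448 CPM over all 24 libraries. The 15 elongating spermatid genes summed to 34553 to 36647 CPM in P23 WT and to 21763 to 26926 CPM in P40 WT, so the P23 WT libraries were above the P40 WT libraries in this list. What part the table or the age label had in that order was not tested. The same P23 WT libraries serve as the WT group in every P23 comparison below.

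In WT testes the 10 genes were at 0 to 128 counts at P8 and at 1648 or more at P23 and P40. *Spaca3*, *Spaca4* and *Spam1* had 0 counts in each of the P8 WT libraries, and *Acrv1* had 2, 1 and 0. *Acr* had 11, 16 and 13 counts at P8 (0.313 ± 0.0442 CPM, SD, n = 3), then 456 ± 5.26 CPM at P23 and 334 ± 36.1 CPM at P40. Per length *Acrbp* was the highest at P8, at 1.93 ± 0.1002 FPKM, followed by *Spaca1* at 1.55 ± 0.234 and *Zpbp* at 0.617 ± 0.106 FPKM. Within the first table, from P8 to P40, 10 of 10 members rose in edgeR's quasi-likelihood test, called at a Benjamini-Hochberg adjusted p under 0.01 over all genes and a fold of at least 2. Of the 16892 genes tested, 31.9% were called higher and 27.8% lower. The log2 increases ran from 6.74 ± 0.25 (SE) for *Spaca1* (adjusted p = 1.76e-07) and 7.05 ± 0.16 for *Zpbp* to 9.98 ± 0.16 for *Acr* (adjusted p = 1.42e-08). For the genes without a count at P8, P40 was at least 1338-fold higher for *Spaca3*, at least 1165-fold for *Spaca4* and at least 1126-fold for *Spam1*, taken against the floor in each P8 library. *Acrv1*, with 3 counts over the P8 group, gave a ratio of 8614 with a 95% counting interval of 2948 to 41772, which covers counting error only.

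**Figure D1:**
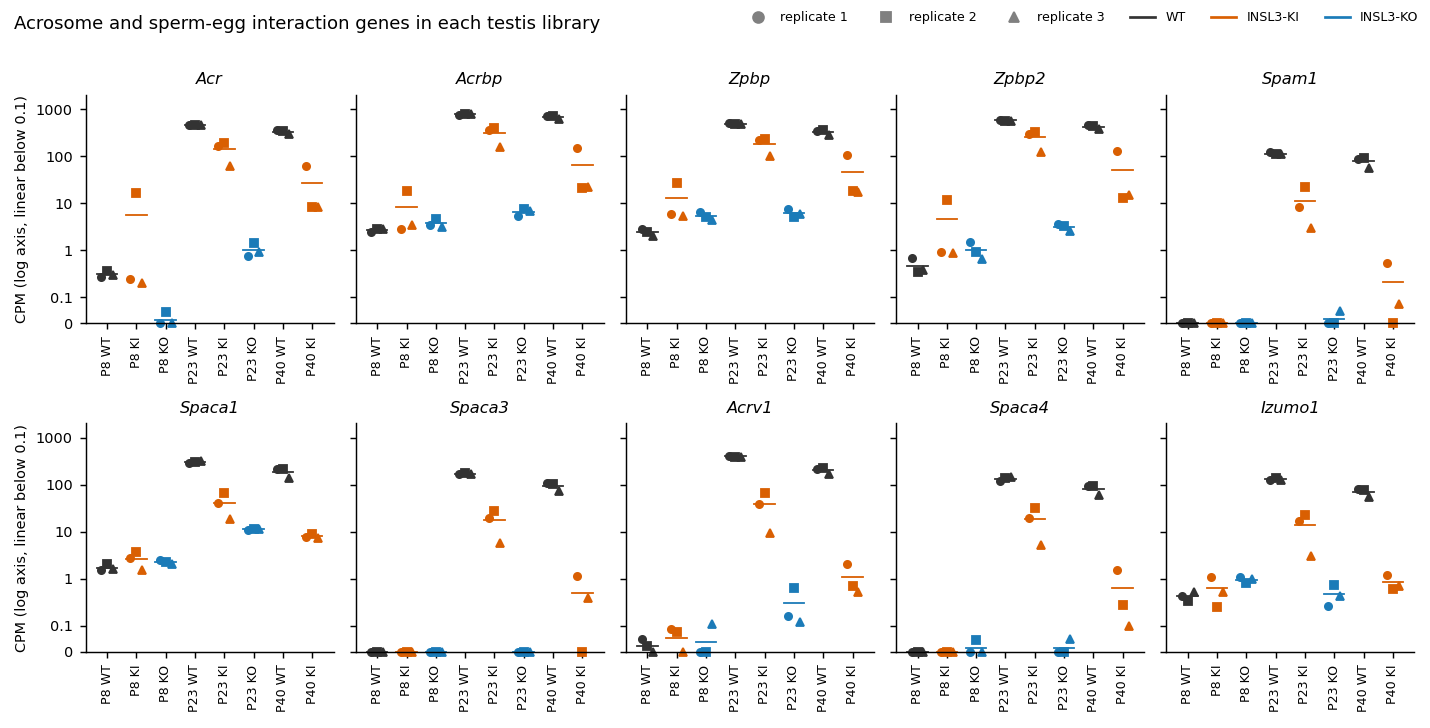
Level of each of the 10 genes in every testis library, as CPM on an axis that is logarithmic above 0.1 and linear below; points are libraries, shaped by replicate and coloured by genotype, and bars are group means. WT libraries stand near 0 to 2.89 CPM at P8 and at 55.3 CPM or above at P23 and P40, P23 INSL3-KO libraries lie at 11.5 CPM or below, and P23 INSL3-KI libraries lie between P23 WT and P23 INSL3-KO.

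P23 WT was at least as high as P40 WT for every member, in a comparison that joins both tables. The log2 difference of P40 against P23 ran from -0.17 ± 0.06 (*Acrbp*, adjusted p = 0.0498) to -0.93 ± 0.10 (*Acrv1*, adjusted p = 4.06e-05) in the edgeR test, so none reached a fold of 2 and 0 of 10 were called by edgeR and by DESeq2, beside 1.64% of genes called lower and 3% called higher by edgeR and 8431 of 16438 genes at an unadjusted p under 0.05. *Acrv1* stood at 398 ± 13.3 CPM at P23 and 203 ± 33.4 CPM at P40, and the groups did not overlap for any member. How many of all genes were separated in this way was not counted, here or in the comparisons below. From P8 to P23 in WT, also across tables, 10 of 10 rose (32.8% of genes called higher), *Acr* by 10.44 ± 0.10 and *Izumo1* by 8.20 ± 0.14 on the log2 scale.

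Per transcript length the order of the members in P40 WT was *Acrbp*, *Zpbp2*, *Acr*, *Acrv1*, *Spaca1*, *Spaca4*, *Spaca3*, *Zpbp*, *Izumo1* and *Spam1*. *Acrbp* stood at 257 ± 7.11 FPKM, *Zpbp2* at 188 ± 9.20, *Acr* at 155 ± 8.95 and *Spam1* at 24.5 ± 5.11. The libraries of *Acrv1* and *Spaca1*, of *Spaca1* and *Spaca4*, of *Spaca4* and *Spaca3*, and of *Izumo1* and *Spam1* overlapped, so these neighbours did not differ beyond the spread between libraries. Within each library *Acrv1* was nevertheless above *Spaca1*, *Spaca1* above *Spaca4* and *Izumo1* above *Spam1*, and replicate 3 was the lowest library for each of these genes. P23 WT gave nearly that order, with *Acrv1* at 211 ± 7.59 FPKM above *Acr* at 179 ± 1.69 and *Spaca3* above *Spaca4*.

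P23 INSL3-KO testes held almost no transcript of these genes, in a comparison within 1 table. The WT group here is the P23 one that was above P40 WT in elongating spermatid genes. *Acr*, the acrosin gene, had 28, 62 and 38 counts in INSL3-KO and 11243, 11092 and 11116 in WT. *Izumo1* had 10, 32 and 18 counts against 3178, 3346 and 3029, and *Acrv1* had 6, 27 and 5 against 10258, 9558 and 9416. No INSL3-KO library came near a WT library for any member. All 10 members fell, beside 33.4% of the 16732 genes tested called lower and 31.1% called higher, with adjusted p of 9.68e-13 to 3.82e-11 in the edgeR test. The median log2 fold change of the members was -8.34, also with the genes at or near 0 counts set to their bound or ratio, against 0.06 over all genes tested. The split of calls over all genes, 5584 lower and 5199 higher, became 4537 and 7188 with library size scaling and 11577 and 198 when libraries were scaled on the Sertoli cell list, with all-gene medians of 0.69 and -2.14, and 10 of 10 members fell under each. In bulk tissue, fewer cells that carry a transcript and less transcript per cell cannot be told apart, here and in every comparison below.

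The size of the difference ran over a wide range. *Spaca3* had 0 counts in each of the 3 INSL3-KO libraries and 4127, 4430 and 4103 in WT, at least 2335-fold lower. *Spaca4* and *Spam1* had 2 counts each over the group, ratios of 8197 (95% counting interval 2269 to 67683) and 6970 (1930 to 57555). The log2 fold change was -10.25 ± 0.20 for *Acrv1*, -8.70 ± 0.12 for *Acr* and -7.98 ± 0.17 for *Izumo1*. *Zpbp2* stood at -7.47 ± 0.09, *Acrbp* at -6.81 ± 0.10 and *Zpbp* at -6.27 ± 0.11. *Spaca1* had the smallest change of the 10 genes. It kept 410, 499 and 460 counts, 3.64% of the P23 WT mean, and fell by 4.72 ± 0.06. It was the highest of the 10 genes per length in INSL3-KO, at 9.16 ± 0.342 FPKM against 4.31 ± 0.571 for *Acrbp*.

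**Figure D2:**
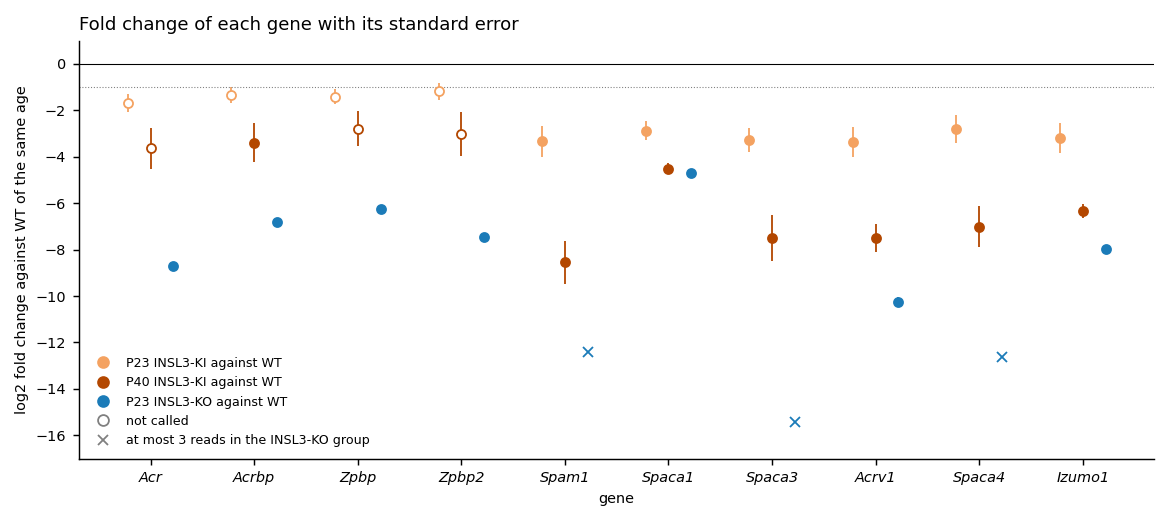
Log2 fold change of each gene against WT of the same age from the edgeR fit, with its standard error; filled circles were called, open circles were not, and crosses mark genes with at most 3 reads in the whole INSL3-KO group, whose fitted value depends on the prior count and is no bound. In P23 INSL3-KO all 10 genes were called, from -4.72 for Spaca1 downwards, and in INSL3-KI the 4 genes on the left (Acr, Acrbp, Zpbp, Zpbp2) have the smallest changes at P23.

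The stage markers moved with the members in P23 INSL3-KO. Of the 14 tested genes of the spermatocyte list 14 fell, of the 15 round spermatid genes 15 and of the 15 elongating spermatid genes 15, with median log2 fold changes of -5.62, -11.36 and -12.24. The round spermatid list summed to 4.53 to 5.27 CPM in INSL3-KO and 7419 to 7825 CPM in WT, and 5 or 6 of its 15 genes were at 0 in a given INSL3-KO library. The spermatocyte list summed to 268 to 281 CPM against 12943 to 13120 CPM, with at most 1 of 14 genes at 0. In the Sertoli cell list 14 of 14 tested genes rose, *Amh* (anti-Müllerian hormone) by 3.64 ± 0.11, and the list summed to 14256 to 14448 CPM against 3383 to 3499 CPM. When libraries were instead scaled on the Sertoli cell list, the 10 members still fell, but the Sertoli cell median was then 0.00 by construction and 2 of 14 of its genes were called higher. What part the cell make-up had in the members' fall was not tested.

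P40 INSL3-KI testes, in which the whale hormone gene stood in place of the mouse one, held less of the 10 genes than P40 WT, again within 1 table. *Spam1*, the hyaluronidase gene, had 21, 0 and 3 counts in INSL3-KI and 2022, 2361 and 1704 in WT. *Izumo1* had 46, 24 and 29 counts against 1842, 1912 and 1648, and *Acrv1* had 78, 28 and 21 against 4975, 5719 and 4907. All 10 genes were lower in every INSL3-KI library than in any WT library. By the edgeR test 7 of 10 fell, beside 22.1% of the 16677 genes tested called lower and 25.6% called higher. The log2 fold changes were -8.54 ± 0.92 for *Spam1* (adjusted p = 0.000495), -7.51 ± 0.60 for *Acrv1* (0.000281) and -7.51 ± 0.99 for *Spaca3* (0.000931). They were -7.01 ± 0.89 for *Spaca4* (0.000819), -6.34 ± 0.31 for *Izumo1* (6.82e-05), -4.51 ± 0.24 for *Spaca1* (8.64e-05) and -3.38 ± 0.82 for *Acrbp* (0.00999). The members' median was -5.43, against 0.09 over all genes tested. Over all genes 3690 were lower and 4264 higher, which became 2458 and 6583 with library size scaling (6 members lower) and 11117 and 42 with Sertoli cell scaling (10 members lower), with all-gene medians of 0.70 and -1.94.

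The 3 members that were not called at P40 were far higher in 1 INSL3-KI library than in the others, as were several called members. *Acr* had 2421 counts in INSL3-KI replicate 1 and 329 and 337 in replicates 2 and 3, against 8162, 8894 and 8714 in WT. *Zpbp2* had 4900 counts in replicate 1 and 521 and 619 in the others, and *Zpbp* had 4017 against 735 and 711. Replicate 1 was thus several times above the other INSL3-KI libraries in these genes and still below WT. With it, the log2 fold changes were -3.63 ± 0.89 for *Acr* (edgeR adjusted p = 0.0102), -3.03 ± 0.93 for *Zpbp2* (0.0243) and -2.80 ± 0.75 for *Zpbp* (0.0144). Without it, 10 of 10 members were called lower, from -4.13 for *Zpbp* to -10.84 for *Spam1*, with -5.26 for *Acr*, -4.85 for *Zpbp2* and -4.85 for *Acrbp*. Over all genes, 5274 were then called lower and 4760 higher. That library had been picked out by these same levels, so this count is no independent support. The call for *Acrbp*, just inside the threshold with all libraries, was lost when any other library was left out.

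As a share of the WT mean, the INSL3-KI libraries divided the members into a pair of sets, which were drawn after their values were seen. In P40 INSL3-KI replicate 1, *Acr*, *Acrbp*, *Zpbp* and *Zpbp2* stood at 19.0% to 31.8% of the P40 WT mean and the other 6 genes at 0.689% to 4.13%. In replicates 2 and 3 the same 4 genes stood at 2.47% to 5.56%, and the other 6 at 0% to 4.65%. At P23, replicates 1 and 2 held 37.1% to 57.5% of the P23 WT mean for the 4 genes and 7.46% to 23.9% for the other 6, and replicate 3 held 13.8% to 21.1% and 2.31% to 6.15%. The ranges of the sets did not overlap within any of the P23 INSL3-KI libraries or within P40 replicate 1. They met in P40 replicates 2 and 3 only through *Spaca1*, at 4.65% and 3.90%. The sets were drawn from these same percentages, so this separation is no independent result. In each P23 INSL3-KO library the ranges overlapped. There *Spaca1*, at 3.56%, 3.73% and 3.62% of the P23 WT mean, was above all 4 genes. *Izumo1*, at 0.205%, 0.566% and 0.334%, was above *Acr*, at 0.164%, 0.313% and 0.202%. *Acrv1*, *Spaca3*, *Spaca4* and *Spam1* were below all 4.

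**Figure D3:**
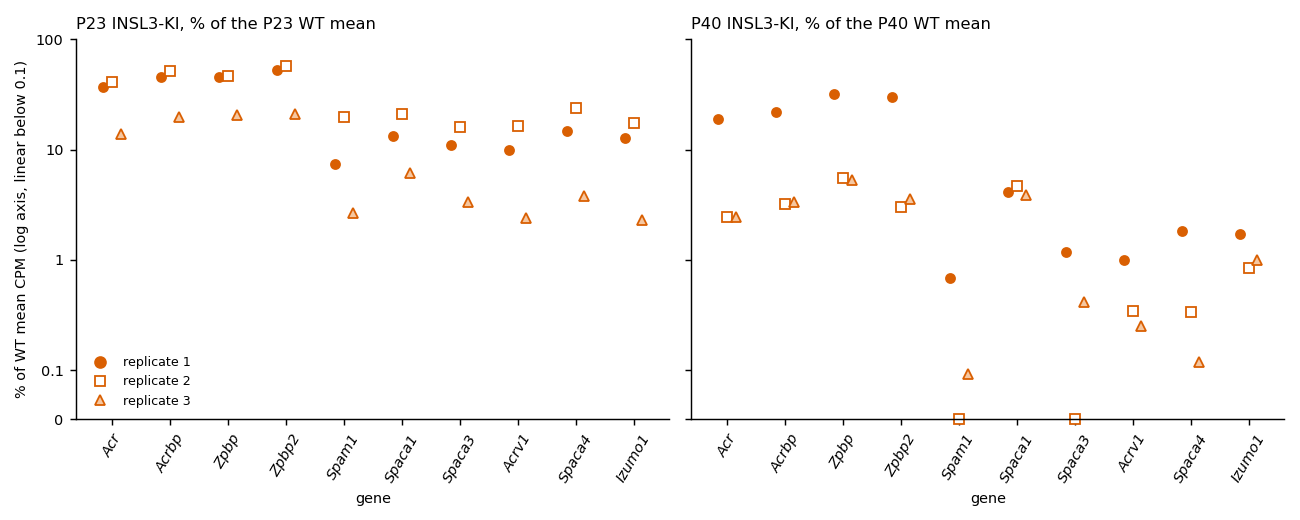
Each INSL3-KI library at P23 (left) and P40 (right) as a percentage of the WT mean of the same age, per gene, on an axis that is logarithmic above 0.1 and linear below. At P40 replicate 1 stands at 19.0% or more for Acr, Acrbp, Zpbp and Zpbp2 and at 4.13% or less for the rest, and replicate 2 is at 0 for Spam1 and Spaca3.

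The same library stood apart in the stage markers. The spermatocyte list summed to 3779 CPM in P40 INSL3-KI replicate 1 and to 687 and 597 CPM in replicates 2 and 3, against 8175 to 9576 CPM in P40 WT. The round spermatid list summed to 69.9 CPM in replicate 1 and to 13.4 and 18.6 CPM in the others, against 5613 to 7199 CPM in WT. The part of these lists in the members' values was not tested. In the test 2 of 14 spermatocyte genes fell, *Nme8* at -5.46 ± 1.17 and *Pgk2* at -4.26 ± 0.92, beside 22.1% of all genes called lower. Without replicate 1, picked out by the members' levels, 14 of 14 fell, beside 5274 of all genes called lower. In each spermatid list 15 of 15 genes fell with all libraries, among them the protamine gene *Prm2* at -10.45 ± 1.83. All 15 Sertoli cell genes rose, by a median of 2.08, summing to 8204 to 11537 CPM against 2744 to 3028 CPM. In the macrophage list 8 of 9 genes rose and *Aif1* fell by 6.01 ± 0.17, and in the spermatogonia list 5 of 10 rose, *Zbtb16* by 2.42 ± 0.23. Scaled on the Sertoli cell list, the medians of the macrophage, spermatogonia, Leydig and peritubular lists turned to between -0.15 and -1.20, while 10 of 10 members were called lower.

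**Figure D4:**
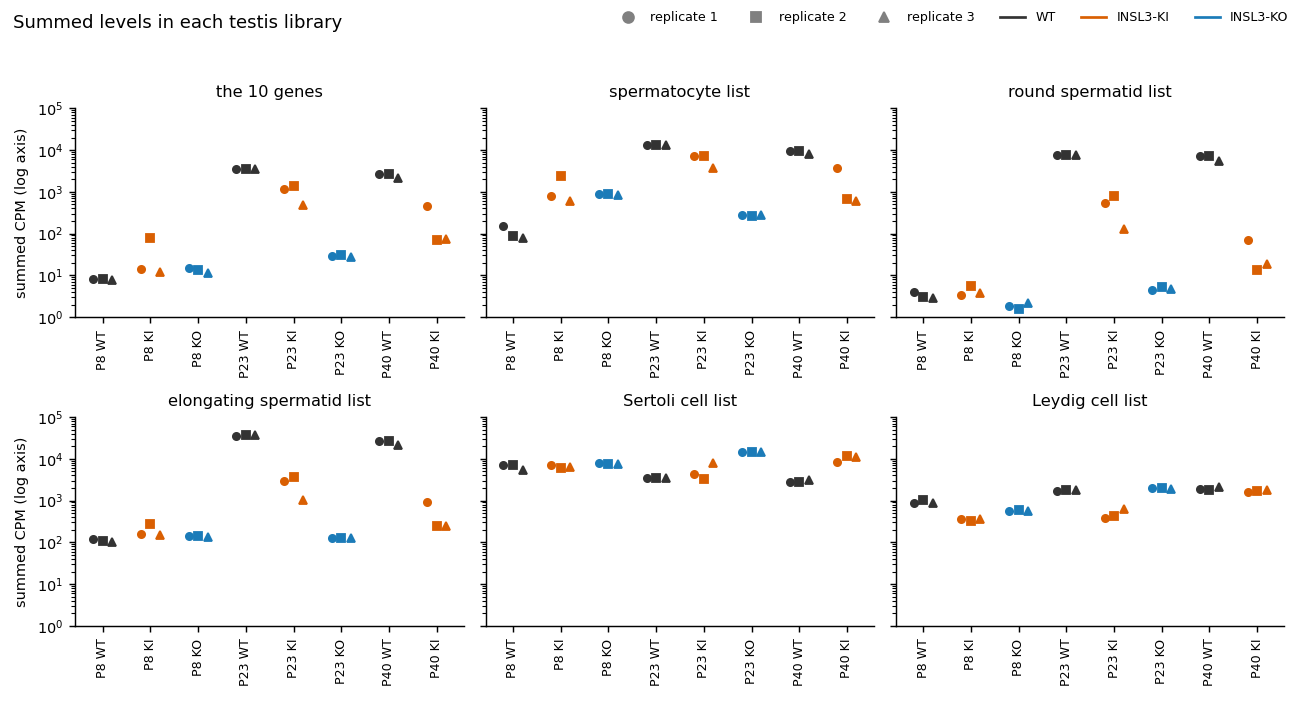
Summed CPM of the 10 genes and of 5 marker lists in every testis library, on a log axis, with points shaped by replicate and coloured by genotype. P40 INSL3-KI replicate 1 lies above the other P40 INSL3-KI libraries for the 10 genes (458 CPM against 71.6 and 72.5) and for the spermatocyte list, and the Sertoli cell list runs the other way, highest in P23 INSL3-KO.

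P23 INSL3-KI testes lay between WT and INSL3-KO, in comparisons that join both tables. The P23 WT libraries were those above P40 WT in elongating spermatid genes. What part this had in the differences from WT was not tested. *Spam1* had 313, 754 and 110 counts in INSL3-KI, 3001, 2681 and 2687 in WT and 0, 0 and 2 in INSL3-KO. *Acr* had 6214, 6373 and 2278 counts in INSL3-KI, a level of 140 ± 67.8 CPM beside 456 ± 5.26 CPM in WT and 1.03 ± 0.353 CPM in INSL3-KO. *Izumo1* stood at 14.2 ± 10.2, 130 ± 5.58 and 0.479 ± 0.238 CPM in the same order. All 10 genes were lower in every INSL3-KI library than in any WT library and higher than in any INSL3-KO library, with replicate 3 the lowest of the INSL3-KI libraries throughout. Against WT, 6 of 10 fell, beside 11.8% of the 16603 genes tested called lower and 8.81% called higher. These were *Acrv1* (-3.37 ± 0.64, edgeR adjusted p = 0.00689), *Spam1* (-3.32 ± 0.66, 0.00795), *Spaca3* (-3.28 ± 0.53, 0.00422), *Izumo1* (-3.19 ± 0.66, 0.00872), *Spaca1* (-2.87 ± 0.42, 0.00333) and *Spaca4* (-2.81 ± 0.60, 0.00958). *Acr*, *Zpbp*, *Acrbp* and *Zpbp2* had values of -1.69, -1.40, -1.34 and -1.18 with adjusted p of 0.0125, 0.011, 0.0185 and 0.0317.

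The P23 INSL3-KI calls rested on few libraries. Of the members, 9 were called without replicate 3 of INSL3-KI, a library picked out by these levels, beside 2661 of all genes called lower. But 0 were called without replicate 1 or without any single WT library. DESeq2 called 10, beside 3088 of all genes called lower. With libraries scaled on the Sertoli cell list 0 were called, although the log2 values were more negative (-4.06 for *Acrv1*, -3.62 for *Spaca1* and -2.46 for *Acr*). The split over all genes, 1966 lower and 1462 higher, became 1450 and 3607 with library size scaling and 936 and 96 with Sertoli cell scaling, with all-gene medians of 0.55 and -0.87. The log2 values stayed negative throughout, from -2.91 to -4.04 for *Acrv1* when each library was left out in turn. Against INSL3-KO, 10 of 10 members were higher in INSL3-KI, beside 25.2% of genes called higher and 13% called lower. The differences ran from 1.90 ± 0.42 for *Spaca1* (adjusted p = 0.00687 in the edgeR test) and 4.87 ± 0.84 for *Izumo1* to 7.08 ± 0.56 for *Acr* among the 7 genes with more than 3 counts in INSL3-KO. *Spaca3* was at least 238-fold higher, and *Spaca4* and *Spam1* gave ratios of 1160 (95% counting interval 321 to 9581) and 691 (191 to 5703). Of the 6 ways to leave out 1 library, 5 lost the call for *Spaca1* and 4 that for *Izumo1*.

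The spermatocyte and spermatid lists in P23 INSL3-KI also lay between WT and INSL3-KO in summed level, and several other lists did not. Of the genes tested, 12 of 15 round spermatid and 12 of 15 elongating spermatid genes fell against WT, with medians of -3.83 and -5.03, and 3 of 14 spermatocyte genes fell, with a median of -0.67. Without replicate 3 the counts were 14, 15 and 4. The round spermatid list summed to 553, 794 and 132 CPM in replicates 1, 2 and 3 and the spermatocyte list to 7354, 7366 and 3649 CPM, so replicate 3 was low in both. Its Sertoli cell list was the highest of the 3, at 8150 CPM against 4218 and 3290, the last of these below every P23 WT library. The Leydig cell list summed to 385 to 627 CPM, below WT (1670 to 1831 CPM) and INSL3-KO (1933 to 1974 CPM). That list includes *Insl3*, whose sequence the knock-in replaced. *Insl3* alone stood at 840 to 1029 CPM in P23 WT, 1.41 to 2.31 CPM in INSL3-KI and 0 to 0.115 CPM in INSL3-KO. The summed peritubular, macrophage and epididymis lists were also below WT and INSL3-KO. The epididymis list stood at 7.94 to 20.3 CPM against 399 to 413 CPM in WT and 547 to 581 CPM in INSL3-KO. Such sums weigh the most abundant genes most. Gene by gene against WT, the peritubular and macrophage medians were 0.67 and 0.10 without replicate 3. They were 1.47 and 1.04 with library size scaling and -0.09 and -0.57 with Sertoli cell scaling. The Leydig cell median was -0.93 without replicate 3, -0.28 with library size scaling and -1.76 with Sertoli cell scaling. Of the 9 epididymis genes only 2 could be tested without replicate 3. What part these lists had in the members' values was not tested.

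At P8, *Spaca3*, *Spaca4*, *Spam1* and *Acrv1* were at or near the floor in every genotype and the other 6 genes were low but counted. *Spaca3* and *Spam1* had 0 counts in all 9 libraries, *Spaca4* had 2 counts in 1 of the libraries labelled INSL3-KO and *Acrv1* at most 5 in any library. The remaining 6 genes could be tested for INSL3-KI against WT, and 0 of 6 were called in the edgeR test. Of all genes 3.25% were called lower and 3.03% higher, and 7530 of 15702 had an unadjusted p under 0.05. DESeq2 called 1 member higher and gave no adjusted p for *Acr* and *Zpbp2*. *Zpbp* had 275, 1091 and 262 counts in INSL3-KI and 111, 107 and 87 in WT, a difference of 2.48 ± 0.67 (adjusted p = 0.03) without overlap, and of 1.32 without replicate 2 (edgeR adjusted p = 0.0112). *Acr* had 11, 657 and 10 counts in INSL3-KI and 11, 16 and 13 in WT, and its difference of 4.20 ± 1.73 (adjusted p = 0.0993) became -0.41 without replicate 2. That replicate was high in *Acr*, *Acrbp*, *Zpbp* and *Zpbp2* and had 0 to 3 counts of *Acrv1*, *Spaca3*, *Spaca4* and *Spam1*. Its spermatocyte list summed to 2455 CPM, against 789 and 612 CPM in the other INSL3-KI libraries and 79.4 to 154 CPM in WT. Its round spermatid list was at 5.46 CPM, against 3.30 and 3.69 CPM.

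Of the meiotic genes, some were called between P8 INSL3-KI and WT. Of 12 tested spermatocyte genes 7 rose, 6 without replicate 2, among them the synaptonemal complex genes *Sycp1* (227 against 29.9 CPM) and *Sycp3* (160 against 14.1 CPM), which were named after their values were seen. Of 8 Leydig cell genes, 5 fell, 4 without replicate 2, and these included *Insl3*, whose sequence the knock-in replaced. Over all genes, 0 to 497 were called lower and 0 to 438 higher when single libraries were left out, so these list counts rest on the full set of libraries. What part these lists had in the members' values at P8 was not tested.

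The P8 libraries labelled INSL3-KO were compared with WT across tables. *Acr* had 0, 2 and 0 counts and was called lower, a ratio of 22.2 with a 95% counting interval of 6.15 to 183, and *Zpbp* had 336, 226 and 203 counts and was called higher by 1.17 ± 0.23 (edgeR adjusted p = 0.00448). These were 2 of the 6 members tested, beside 8.37% of genes called lower and 5.44% called higher. The call for *Acr* was lost whichever library was left out, and that for *Zpbp* without any of the INSL3-KO libraries or WT replicate 2. The spermatocyte list summed to 854 to 869 CPM in these libraries, above WT. Between P8 INSL3-KI and these libraries 0 of 5 members tested were called. Of all genes 1.16% were called lower and 2.76% higher, and 7013 of 15728 had an unadjusted p under 0.05. DESeq2 called 0 members and gave no adjusted p for *Zpbp2*.

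The change with age was read within each genotype. In INSL3-KI, from P8 to P23, 4 of 10 members rose in the edgeR test (*Acrv1*, *Spaca1*, *Spaca3*, *Spaca4*), beside 5.7% of genes called higher and 3.53% lower. *Spaca3*, *Spaca4* and *Spam1* had 0 counts in each P8 INSL3-KI library and *Acrv1* had 4, 3 and 0, so these could hardly fall. They were at least 260-fold, 280-fold and 167-fold higher at P23 for *Spaca3*, *Spaca4* and *Spam1*. The fitted rise of *Acrv1*, 9.28 ± 1.13 (adjusted p = 0.00864), rests on its few counts at P8. From P23 to P40 no member was called, and no gene of the 16328 tested was, although 7615 had an unadjusted p under 0.05 and DESeq2 called 875 genes lower and 301 higher. The members' log2 values for that step ran from -2.00 ± 0.80 (*Zpbp*, adjusted p = 0.104) to -5.77 ± 1.37 (*Spam1*, 0.0991). Of the members, 7 of 10 were lower in every P40 library than in any P23 library. The share of all genes separated in this way was not counted, so this is no trait of the members. DESeq2 called 6 members lower. Without P23 replicate 3 and P40 replicate 1, which were picked out by these same levels, edgeR called 10. Over all genes, 4304 were then called lower and 3320 higher. In INSL3-KO, from the P8 libraries labelled so to P23, 3 of the 6 members tested rose, beside 12% of genes called higher and 11.7% lower. These were *Acr* (0, 2, 0 counts to 28, 62, 38), *Spaca1* (2.29 ± 0.15, adjusted p = 2.24e-08) and *Zpbp2* (1.61 ± 0.33, adjusted p = 0.000825).

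The change of the INSL3-KI difference with age was tested as an interaction. Between P23 and P40, across tables, 0 of 10 members were called, beside 1.97% of genes called lower and 0.878% higher, and 7536 of 17191 genes had an unadjusted p under 0.05. The members' values ran from -1.40 ± 0.85 (*Zpbp*, edgeR adjusted p = 0.215) to -5.24 ± 1.15 (*Spam1*, 0.0144), all of them negative. DESeq2 called 6 members and gave no adjusted p for *Acr*, *Acrbp* and *Zpbp2*. By edgeR 9 were called without P40 INSL3-KI replicate 1 and 6 without P23 INSL3-KI replicate 3. Both libraries were picked out by these same levels. Without the P40 library 3470 of all genes were called lower, against 339 with all libraries. Between P8 and P40, within the first table, 7 of the 7 members that could be tested were called, beside 22.5% of genes lower and 23.2% higher. The call for *Acr* was lost in 9 and that for *Zpbp2* in 8 of the 12 fits with 1 library left out, and *Acrv1* had only 3 counts in P8 WT and 7 in P8 INSL3-KI, while *Spaca3*, *Spaca4* and *Spam1* could not be fitted for lack of a count at P8.

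Genes of the same pathway were read from lists drawn up by function. Of 15 tested genes for other acrosomal contents, 15 fell in P23 INSL3-KO and 9 in P40 INSL3-KI (15 without replicate 1). *Zp3r*, which encodes the acrosomal matrix protein sp56, fell by 8.95 ± 1.05 in P40 INSL3-KI and by 12.21 ± 0.22 in P23 INSL3-KO, and the hyaluronidase gene *Hyal5* fell by 9.32 ± 0.90 in P40 INSL3-KI and was at 0 in P23 INSL3-KO. Of 16 genes for acrosome formation, 13 fell in P23 INSL3-KO and 11 in P40 INSL3-KI (13 without replicate 1). *Cylc2*, a cylicin of the perinuclear theca, fell by 8.61 ± 1.11 in the latter, while *Gopc* and *Vps54*, trafficking genes used in many cell types, had values of -0.31 and 0.49 and were not called (both named after their values were seen).

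Of 19 tested genes for sperm-egg interaction, 18 fell and 1 rose in P23 INSL3-KO and 13 fell in P40 INSL3-KI (18 without replicate 1). In P40 INSL3-KI the log2 fold change was -9.39 ± 0.89 for *Izumo2* and -8.66 ± 1.02 for *Llcfc1*, which is needed for fusion. The exception in P23 INSL3-KO was *Tpst2*, a tyrosylprotein sulfotransferase, at 1.01 ± 0.10, and with Sertoli cell scaling all 19 genes fell. Of the 13 genes listed as spermatid regulators, 12 fell in P23 INSL3-KO and 6 in P40 INSL3-KI (12 without replicate 1). They are transcription and chromatin regulators apart from *Mns1*, a structural protein gene. *Mns1* was among the 6, at -1.71 ± 0.36 (named after its value was seen). In P40 INSL3-KI *Spz1* stood at -8.32 ± 0.86 and *Sox30* at -3.71 ± 0.70, and *Crem*, which encodes a cAMP response element modulator, stood at -3.05 and was called. *Rfx2* fell by 6.63 ± 0.07 in P23 INSL3-KO and had a value of -2.94 in P40 INSL3-KI that was not called (*Crem* and this value were chosen after they were seen).

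**Figure D5:**
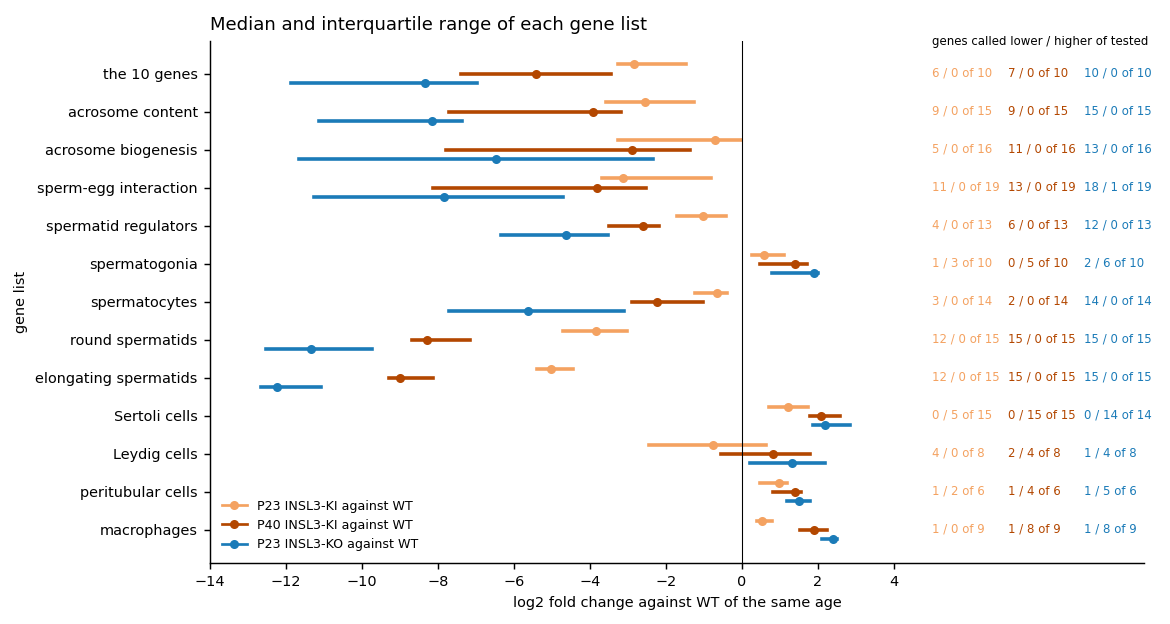
Median (point) and interquartile range (line) of the log2 fold change of each gene list against WT of the same age, with the number of genes called lower and higher of those tested at the right. The medians of the lists of the acrosome, of sperm-egg interaction and of spermatids lie left of 0 in all 3 comparisons, and that of the Sertoli cell list right of 0, while the spermatogonia, Leydig and peritubular medians are all below 0 when libraries are scaled on the Sertoli cell list.

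Across the 24 testis libraries the members followed each other closely, with pairwise Pearson r of 0.881 to 0.998 on log2(CPM + 0.5). The libraries share ages and genotypes, so these values describe a common rise and fall over 8 groups and are not independent. The genes most like the members' mean were *1700129C05Rik* (r = 0.9972), *Lkaaear1* (0.9971), *1700017N19Rik* (0.997), *1700019N19Rik* (0.9968) and *Tex21* (0.9967), out of 10568 genes with at least 10 CPM on average in P40 WT. As many as 1814 of these genes had r over 0.95.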

How the data were processed

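Testis RNA was sequenced as paired-end poly(A) libraries. Per the labels and the study's methods, the authors aligned reads with HISAT2 to GRCm38, and the annotation release and counting tool are not given in the sources used here. The authors deposited raw counts and FPKM per gene in 2 tables, which were joined on Ensembl ID. FPKM as deposited was used to compare levels between genes. Counts were tested with edgeR 4.0.16 in R 4.3.3 (filterByExpr defaults, TMM, quasi-likelihood test, Benjamini-Hochberg over all genes tested), on the groups compared. A call needed an adjusted p under 0.01 and a fold of at least 2, as in the study. Standard errors were taken from the fold change and its F value. The named genes were the 10 members in all 13 group comparisons and 2 interactions, *Insl3*, up to 3 called genes a direction with the largest change in each further list, and the 5 genes most like the members, and others are marked where named. The members and lists were chosen with earlier results of these data known. Alternatives were DESeq2 1.42.0, limma 3.58.1 on log2(FPKM + 1) and log2(FPKM + 0.1), other scalings and filters, a replicate block and each library left out. The labels call the libraries of a group biological replicates, so each was counted as 1 replicate. They differed by more than sampling noise, which does not show that they came from separate animals. The standard errors and p-values take them as independent. Columns of no sample were 0. The scripts were tested on simulated data. Promoter sequences are RefSeq's. The proteins and the *Acr* promoter were not used here.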

Additional observations from a re-analysis of the deposited data

Results flagged for a closer look

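The INSL3-KI difference from WT changed between P8 and P40 for 7 members, by the interaction term of the edgeR quasi-likelihood test within 1 table (called at an adjusted p under 0.01). The change, as the log2 difference at P40 minus that at P8, was -7.90 for *Acr* (adjusted p = 0.00745), -8.71 for *Acrv1* (0.000827), -5.10 for *Acrbp* (0.00321), -5.28 for *Spaca1* (8.67e-06), -5.36 for *Zpbp* (0.00158), -6.45 for *Zpbp2* (0.00522) and -7.05 for *Izumo1* (1.9e-05). At P8 the fitted difference was above 0 but not called for the 6 genes that could be tested (edgeR adjusted p of 0.03 to 0.45). With a library left out it reached -0.41 for *Acr* and -0.042 for *Izumo1*. At P40 the difference was below 0 for all 7, so no turn from higher to lower was shown. DESeq2 gave no adjusted p for *Acr*, *Acrbp* and *Zpbp2* and called the other members of the 7. *Acrv1* had 3 counts in P8 WT and 7 in P8 INSL3-KI, too few for a measured difference at P8, so the size of its change is uncertain. With single libraries left out, the call for *Acr* was lost in 9 of 12 fits (-9.49 to -3.33, edgeR adjusted p up to 0.0558), that for *Zpbp2* in 8 and that for *Acrv1* in 1. For *Acr*, *Acrbp*, *Zpbp* and *Zpbp2* the value at P8 was raised by INSL3-KI replicate 2.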

How the results depend on the processing

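Of the alternatives to the 30 counts of called members, 337 were equal to or near the main count, 28 were lower and 15 higher. Many of the 30 counts were 0 to begin with, so the first number says little. All 10 members stayed lower in P23 INSL3-KO. For P40 INSL3-KI against WT, members called lower (7) became 6 with library size scaling. They became 10 with Sertoli cell scaling and 10 without INSL3-KI replicate 1. For P8 INSL3-KI against WT, DESeq2 and a fit of all groups each called 1 member higher (0 in the report). For the P8 libraries labelled INSL3-KO against WT, the member called lower became 0 with the replicate block, without a filter, with all groups in 1 fit, with limma on log2(FPKM + 1) and when any library was left out, and the member called higher became 0 with all groups, limma on log2(FPKM + 1) and Sertoli cell scaling, and 0 to 1 when a library was left out. P8 INSL3-KI against those libraries gave 1 higher with all groups. For P23 INSL3-KI against WT, members called lower (6) became 10 with DESeq2, 0 with Sertoli cell scaling and 0 to 9 with a library left out. For WT P40 against P23 they were 0 to 1 with a library left out. For INSL3-KI from P8 to P23, members called higher (4) became 9 with DESeq2 and 0 to 8 with a library left out, and from P23 to P40 members called lower (0) became 6 with DESeq2 and 10 without P23 replicate 3 and P40 replicate 1, a setting chosen after seeing the data. The interaction between P23 and P40 (0) gave 6 with DESeq2, 0 to 9 with a library left out and 10 without both. Over all genes, 4451 were called lower in that last fit. The interaction between P8 and P40 (7) gave 4 with DESeq2, which had no adjusted p for *Acr*, *Acrbp* and *Zpbp2*.

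Replicate numbers did not pair the samples: same-numbered libraries correlated at -0.135 to 0.323, over 0.1 in 4 of 15, and best with their own number in 7 of 15. With the replicate block, members called were 2 for P23 INSL3-KI against WT, 8 for INSL3-KI from P8 to P23, 5 for the interaction between P8 and P40 and 0 lower for the P8 libraries labelled INSL3-KO.

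The sign of 6 member values turned. At P8 INSL3-KI against WT, with a library left out, *Acr* ran from -0.41 (without replicate 2) to 4.77 and *Izumo1* from -0.042 (without replicate 1) to 0.99. Against the P8 libraries labelled INSL3-KO, without INSL3-KI replicate 2, *Acrbp* was -0.19 (highest 1.55), *Spaca1* -0.085 (0.50) and *Zpbp2* -0.15 (2.64). *Zpbp* in INSL3-KO from P8 to P23 was -0.038 with library size scaling.

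Counts over all genes moved with a library left out: 282 to 2661 lower for P23 INSL3-KI against WT (1966 with all), 0 to 497 lower at P8 (511), 0 to 2869 higher for INSL3-KI from P8 to P23 (935) and 2268 to 5274 lower at P40 (3690). With the replicate block, 1 lower and 5 higher were left at P8. Library size scaling turned WT P40 against P8 from 4704 lower and 5388 higher to 6900 and 4200, WT P23 against P8 to 7239 and 4236, INSL3-KO from P8 to P23 to 2651 and 1396, and the interaction between P8 and P40 to 2591 and 5822. The causes were not tested. With 3 libraries a group, and counts of 0 to 5 at P8 for several members, small differences were not detectable at this depth.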

Other observations

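In the gubernaculum, the ligament that guides descent, the 10 genes were low in the same series. The highest member was *Acrbp*, with 188 to 324 counts (5.50 to 8.24 CPM) in P23 INSL3-KI, beside 5.47 to 7.45 CPM in P23 INSL3-KO testis. The gubernaculum libraries were not among those over which testis CPM were scaled, so these CPM are only roughly comparable. P8 WT gubernaculum replicate 1 held 32 counts of *Acrv1*, 17 of *Spaca3*, 18 of *Spam1*, 20 of *Izumo1* and 100 of *Zpbp2*, where replicates 2 and 3 held 3 and 0, 0 and 0, 2 and 0, 2 and 2, and 28 and 12.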
